A study of Homo sapiens with 6 samples.

Results

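The 7 genes described here encode the FOS and JUN families of AP-1 subunits, namely FOS, FOSB, FOSL1, FOSL2, JUN, JUNB and JUND. They were chosen by gene name, and all 7 were found, each as 1 row, among 58735 genes in the deposited count table. Their mRNA was measured by RNA sequencing of Het1A, an epithelial line derived from human oesophagus and immortalised with SV40 large T antigen. In 3 bile acid libraries the cells had spent 10 min on each of 5 days in medium of pH 4.0 with 100 µM of mixed glycocholic, taurocholic, glycodeoxycholic, glycochenodeoxycholic and deoxycholic acid, and 3 control libraries came from cells given the vehicle, 0.1% DMSO. Both groups had 1% serum, beginning 48 h ahead of the treatments, and pituitary extract and EGF in their medium, and RNA was taken 24 h after the last treatment. Whether controls also met pH 4.0 is not stated, so acid and bile acids cannot be told apart. The libraries are called biological replicates without a word on how the cultures were separated, so p-values measure the spread between these libraries.

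AP-1 is a dimeric transcription factor held together by a leucine zipper and bound to DNA through the basic region beside it. JUN proteins pair with each other or with FOS proteins, whereas FOS proteins need a partner, and the dimers bind TGAGTCA or the related TGACGTCA. FOS, FOSB, JUN and JUNB are immediate-early genes, transcribed within minutes of a growth factor or stress signal that reaches them through MAP kinases, and their mRNAs are short-lived. FOSL1 and FOSL2 usually follow later, and JUND is present in resting cells. In squamous epithelium AP-1 acts on genes of proliferation, matrix remodelling and terminal differentiation.

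Library totals ran from 27008714 to 28497721 counts in the bile acid group and from 21006677 to 26218597 in the control group, so that 3 counts, the floor used here, correspond to 0.105 to 0.143 CPM (counts scaled to library size), which covers counting error only. Control 2 stood apart from the other libraries, with 19101 genes detected against 24174 to 25337 in the other 5 and a correlation of log2 CPM with them of 0.890 to 0.928, where the other pairs reached 0.974 to 0.986 (across genes, which are not independent replicates). Its deviation from the gene means was lower for longer genes (Spearman rho −0.33 across genes), as was that of bile acid 2 (−0.22), while rho was 0.20 to 0.29 in the other 4. The epithelial markers CDH1, EPCAM, KRT8, KRT18 and KRT19 summed to 912 to 1032 CPM in bile acid libraries and 633 to 1539 CPM in control libraries, and the 8 markers of basal squamous cells to 152 to 284 CPM in bile acid libraries and 175 to 309 CPM in control libraries. The basal sum came almost wholly from KRT17, ITGA6 and ITGB4, while KRT5, KRT14, KRT15, TP63 and SOX2 each stayed under 1 CPM in every library. PTPRC, CD3E, LYZ, CDH5 and COL3A1, which mark leukocytes, endothelium and fibroblasts, had no counts in any library. In bile acid libraries the leukocyte list summed to 12.9 to 16.8 CPM, the endothelial list to 1.07 to 1.95 CPM and the fibroblast list to 112 to 248 CPM, and in control libraries to 9.87 to 13.0, 0.336 to 2.12 and 52.0 to 213 CPM. The fibroblast sum was mostly COL1A1, and its part in the results was not tested.

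FOS and JUNB were higher in every bile acid library than in any control library, with mean levels of 190 ± 158 and 117 ± 64.0 CPM in bile acid libraries against 19.1 ± 6.36 and 25.2 ± 7.12 CPM in control libraries (SD, n = 3 each). FOSB was likewise higher in all 3 but rested on few counts, FOSL1, FOSL2 and JUN were higher in 2 of 3 bile acid libraries, and JUND did not separate the groups. No gene of any kind passed in the edgeR quasi-likelihood test at a Benjamini-Hochberg adjusted p under 0.05, which called 0 of 17743 genes (0%), where 588 genes (3.31%) had an unadjusted p under 0.05 and limma-voom also called 0. DESeq2 called 19 genes, all higher, or 0.107% of those with an adjusted p, and FOS and JUNB were 2 of them. All bile acid libraries lay above all controls for 3 of the 7 AP-1 genes, FOS, FOSB and JUNB, against 5.3% of all genes tested, and 0 of the 7 had all bile acid libraries below all controls, against 4.88%. An unadjusted p under 0.05 in edgeR, with the bile acid mean higher, was reached by 5 of the 7, all but FOSL2 and JUND, against 1.93% of all genes, and with the bile acid mean lower by 0 of the 7, against 1.39%. A log2 fold change of at least 1 was reached by the same 5, against 2.29%. The 7 were chosen with earlier results of these data known, so these counts describe them and do not test them as a group.

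**Figure D1:**
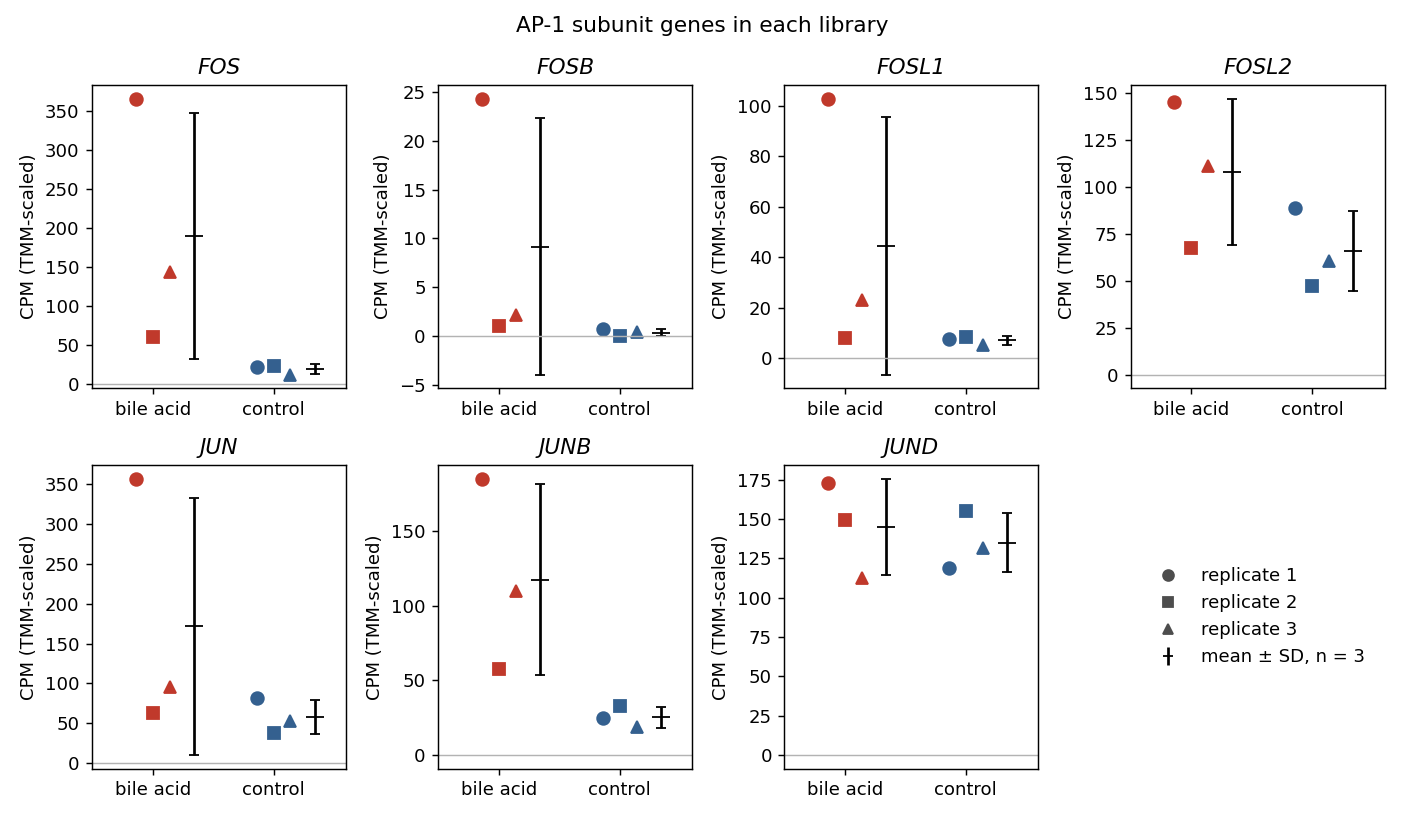
CPM of each AP-1 gene (y axis, TMM-scaled, each panel with its own scale, 0 marked by a grey line) in 3 bile acid and 3 control libraries; symbols mark the replicate number and bars the mean ± SD of 3 libraries, which for FOSB and FOSL1 reach below 0. Bile acid 1 holds the highest value for all 7 genes, and the 2 groups are apart for FOS, FOSB and JUNB.

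FOS is the founding member of its family and the partner that gives JUN dimers high affinity for DNA. It lies on chromosome 14 (ENSG00000170345, 75278774 to 75282230, plus strand, GRCh38). It measured 366, 60.0 and 144 CPM in bile acid libraries 1 to 3, against 22.1, 23.4 and 11.8 CPM in control libraries 1 to 3. The lowest bile acid library was therefore above the highest control, and the bile acid libraries differed far more among themselves than the controls did. The log2 fold change was 3.32 (SE 0.66). That placed FOS at rank 7 of 17743 genes by fold change. The adjusted p was 0.911 in edgeR and 0.00071 in DESeq2, and the authors' deposited table gives a log2 fold change of 3.34 with an adjusted p of 4.4e-05. Without bile acid 1 the log2 fold change was 2.42 (SE 0.47), and FOS was then the 1 gene that DESeq2 called (adjusted p = 0.0348). Over 26 alternatives the adjusted p of FOS, from edgeR, DESeq2 or limma, ran from 7.2e-09 to 1.00, and that of JUNB from 1.7e-06 to 1.00.

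JUNB, which pairs with FOS proteins and binds DNA alone more weakly than JUN, lies on chromosome 19 (ENSG00000171223, 12791496 to 12793315, plus strand). It measured 185, 57.7 and 109.5 CPM in bile acid libraries, against 24.6, 32.6 and 18.3 CPM in control libraries. The groups did not overlap, and the order of the bile acid libraries was that of FOS. The log2 fold change was 2.22 (SE 0.44), with an adjusted p of 0.911 in edgeR and 0.00339 in DESeq2, and the authors' deposited table gives 2.22 with an adjusted p of 0.00108. Without bile acid 1 it was 1.74, and DESeq2 no longer called JUNB (adjusted p = 0.142). Of the 1820 exonic bases of JUNB, 14.2% are shared with HOOK2 on the opposite strand, and since no source used here says whether strand was counted, reads there cannot be assigned to either gene. No exon of the other 6 genes is overlapped in GENCODE 29.

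FOSB, which makes both a full-length and a truncated subunit, lies on chromosome 19 (ENSG00000125740, 45467995 to 45475179, plus strand) and was the scarcest of the 7. It had 682, 28 and 64 counts in bile acid libraries and 20, 0 and 10 counts in control libraries, or 24.3, 1.02 and 2.22 CPM in bile acid libraries against 0.718, 0 and 0.426 CPM in control libraries. The groups did not overlap, but bile acid 1 held most of the counts. The log2 fold change of 4.49 (SE 1.42), the second largest of all genes tested, was 2.03 (SE 1.15) without bile acid 1, and its adjusted p was 0.911 in edgeR, 0.677 in DESeq2 and 0.736 in the authors' deposited table.

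The promoters of FOS, JUNB and FOSB, the 3 genes whose groups were apart, are shown with that of JUND, whose level did not separate them. The sequences are from RefSeq (GRCh38.p14), written 5′ to 3′ on the gene's strand and ending where the transcript begins in GENCODE 29 or RefSeq, whichever comes first. Capitals mark TGACG, the part of the site that CREB and ATF factors and AP-1 share, and TATAA, the core of a TATA box, on either strand.
FOS promoter, chr14:75278578-75278773, plus strand: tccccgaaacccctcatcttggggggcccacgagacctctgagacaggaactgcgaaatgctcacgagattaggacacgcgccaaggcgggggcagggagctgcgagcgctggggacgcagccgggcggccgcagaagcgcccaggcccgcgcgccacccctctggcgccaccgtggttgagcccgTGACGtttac
JUNB promoter, chr19:12791236-12791485, plus strand: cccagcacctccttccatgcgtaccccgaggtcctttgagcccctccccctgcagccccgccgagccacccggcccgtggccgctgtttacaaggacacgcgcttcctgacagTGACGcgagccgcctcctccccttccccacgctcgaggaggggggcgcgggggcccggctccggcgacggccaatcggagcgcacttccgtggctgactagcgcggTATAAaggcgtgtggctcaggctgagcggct
FOSB promoter, chr19:45467746-45467994, plus strand: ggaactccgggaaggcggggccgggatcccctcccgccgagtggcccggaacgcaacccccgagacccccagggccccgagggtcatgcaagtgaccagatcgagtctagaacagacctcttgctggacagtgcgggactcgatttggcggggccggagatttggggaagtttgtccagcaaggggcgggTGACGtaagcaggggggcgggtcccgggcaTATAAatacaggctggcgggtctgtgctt
JUND promoter, chr19:18281623-18281872, minus strand: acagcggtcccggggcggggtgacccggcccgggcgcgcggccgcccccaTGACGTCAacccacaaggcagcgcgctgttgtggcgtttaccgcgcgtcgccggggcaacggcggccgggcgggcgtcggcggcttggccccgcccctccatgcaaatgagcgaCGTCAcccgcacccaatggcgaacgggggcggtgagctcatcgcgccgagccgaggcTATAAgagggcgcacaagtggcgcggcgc

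Within the RefSeq windows of 300 bases, from 250 before to 50 after the start, TGACG occurred in 6 of the 6 AP-1 promoters found there (FOSL1 is not in the table), against 24.6% of 35116 promoters of that length. The JUND promoter alone held the full palindrome TGACGTCA, found in 1.85% of promoters, and FOSL2 alone held TGAGTCA, found in 4.95%. TATAA occurred in FOS, FOSB, JUNB and JUND, against 20.4% of promoters. In FOS it lies between the GENCODE and the RefSeq start and so outside the stretch printed. The CArG box, the serum response factor site known from FOS, was not among the letters of any of the 6 windows. Bases more than 250 before the start were not searched, so a site further upstream could not be found. TGACG and TGACGTCA overlap each other, and these matches are letters, not evidence of binding.

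FOSL1 and FOSL2 encode FRA1 and FRA2, FOS proteins without the strong activation domain of FOS. FOSL1 (ENSG00000175592, chromosome 11, 65892049 to 65900573, minus strand) measured 103, 7.71 and 22.9 CPM in bile acid libraries, against 7.43, 8.39 and 5.02 CPM in control libraries. Bile acid 2 lay within the control range, so the groups overlapped, and the log2 fold change of 2.68 (SE 0.86) was 1.15 without bile acid 1. The adjusted p was 0.911 in edgeR and 0.204 in DESeq2, and 0.0632 in the authors' deposited table. FOSL2 (ENSG00000075426, chromosome 2, 28392448 to 28417312, plus strand) measured 145, 67.6 and 111 CPM in bile acid libraries, against 88.9, 47.2 and 60.8 CPM in control libraries. Its log2 fold change was 0.72 (SE 0.34), with the groups overlapping through bile acid 2 and control 1 (edgeR, adjusted p = 0.911).

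JUN, the strongest activator among the JUN proteins and the main substrate of the kinase JNK, lies on chromosome 1 (ENSG00000177606, 58780788 to 58784327, minus strand). It measured 357, 62.6 and 94.9 CPM in bile acid libraries, against 81.0, 38.2 and 53.2 CPM in control libraries. Bile acid 2 lay below control 1, and only bile acid 1 stood far above the controls. The log2 fold change of 1.58 (SE 0.65) was 0.46 (SE 0.38) without bile acid 1 (edgeR, adjusted p = 0.911 with all libraries). JUND, often linked to quiescence, lies on chromosome 19 (ENSG00000130522, 18279760 to 18281622, minus strand). It measured 173, 149.5 and 112 CPM in bile acid libraries, against 119, 155 and 131 CPM in control libraries, and both the highest and the lowest library belonged to the bile acid group. Its log2 fold change of 0.10 (SE 0.22) turned to −0.04 without bile acid 1 (edgeR, adjusted p = 0.942 with all libraries).

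The bile acid libraries kept 1 order for 6 of the 7 genes, with library 1 highest, library 3 next and library 2 lowest, and JUND was the exception. Relative to the mean of the controls, FOS stood 19.2-fold, 3.14-fold and 7.55-fold higher in bile acid libraries 1 to 3. JUNB stood 7.35-fold, 2.29-fold and 4.35-fold higher. In bile acid 2, FOSL1, FOSL2 and JUN were at 1.11, 1.03 and 1.09 times the control mean, so that this library was above all controls in FOS, FOSB and JUNB and within the range of the controls in the other 3. Bile acid 3 was above all controls in every gene but JUND. Bile acid 2 is also the library that shares the length trend of control 2. With that trend removed from all libraries the log2 fold changes were 3.42 for FOS, 2.47 for JUNB and 2.94 for FOSL1. They were 4.45 for FOSB, 1.62 for JUN, 0.63 for FOSL2 and 0.28 for JUND. Those of FOSB and FOSL2 were lower than in the main fit and the others higher, and edgeR called 0 genes.

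**Figure D2:**
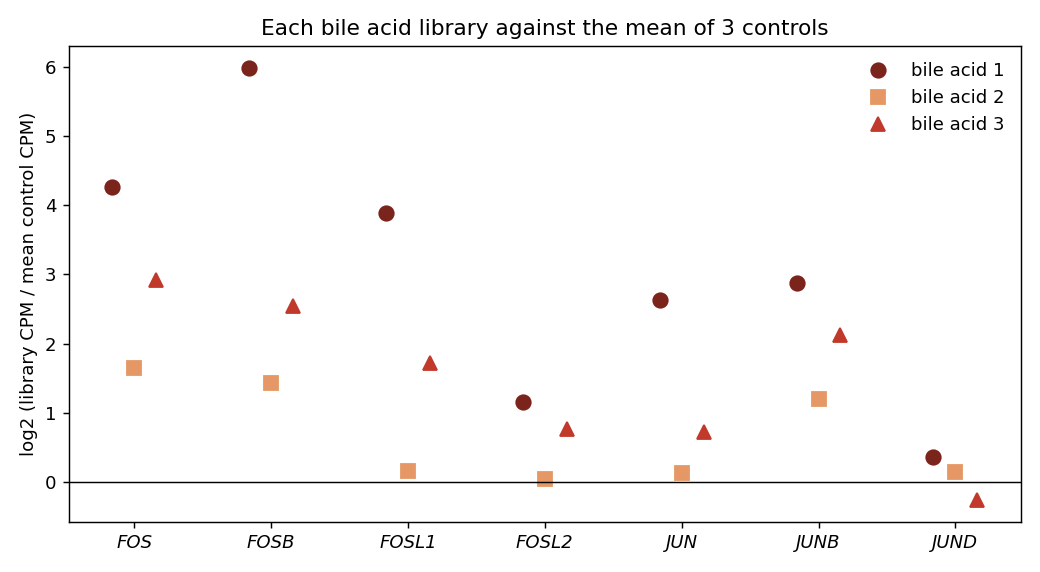
Log2 of the CPM in each bile acid library over the mean CPM of the 3 controls (y axis) for the 7 AP-1 genes (x axis); 0 is the control mean. FOS, FOSB and JUNB are above 0 in all 3 libraries, while FOSL1, FOSL2 and JUN are near 0 in bile acid 2 and JUND lies between −0.26 and 0.36.

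Levels of the 7 mRNAs can be set beside each other per length, in the authors' FPKM. In the control libraries JUND led with 62.7 ± 7.64 FPKM (SD, n = 3), followed by JUN at 14.1 ± 5.50, JUNB at 12.0 ± 3.22, FOSL2 at 7.97 ± 2.68, FOS at 5.10 ± 1.67, FOSL1 at 3.19 ± 0.767 and FOSB at 0.0601 ± 0.0569 FPKM. JUND and JUN, and FOSL1 and FOSB, differed by more than the sum of their SDs, and the neighbours between JUN and FOSL1 did not. In the bile acid libraries JUND measured 66.3 ± 13.8, JUNB 55.0 ± 29.9, FOS 50.0 ± 41.5, JUN 41.3 ± 38.8, FOSL1 20.1 ± 23.1, FOSL2 12.9 ± 4.64 and FOSB 1.41 ± 2.01 FPKM, and of the neighbours in that order FOSL2 and FOSB alone differed by more than the sum of their SDs. FOS took rank 1, 3 and 3 of the 7 genes in bile acid libraries 1 to 3, against rank 5, 4 and 5 in control libraries 1 to 3.

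The make-up of the AP-1 mRNA pool differed with these levels. FOS made up 23.2%, 11.5% and 20.2% of the summed FPKM of the 7 genes in bile acid libraries, against 5.53%, 5.55% and 3.30% in control libraries. JUNB made up 20.8%, 19.6% and 27.4% in bile acid libraries, against 11.0%, 13.7% and 9.12% in control libraries. JUND made up 19.0%, 49.6% and 27.4% in bile acid libraries, against 51.6%, 63.9% and 63.8% in control libraries. None of these 3 shares overlapped between the groups, with FOS and JUNB higher and JUND lower in all 3 bile acid libraries, while the level of JUND itself overlapped. The 4 FOS family genes together held 39.4%, 19.9% and 33.0% of the pool in bile acid libraries, against 18.9%, 14.0% and 13.5% in control libraries, so that bile acid 2 was only just above control 1. The summed FPKM was 415, 138 and 188 in bile acid libraries, against 108, 111 and 96.4 in control libraries. These shares are a description, since an exact permutation of 3 against 3 cannot give a p below 0.1. They rest on exonic length, as the FPKM do. In RNA from bulk cultures, more cells with the mRNA and more mRNA per cell cannot be told apart.

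**Figure D3:**
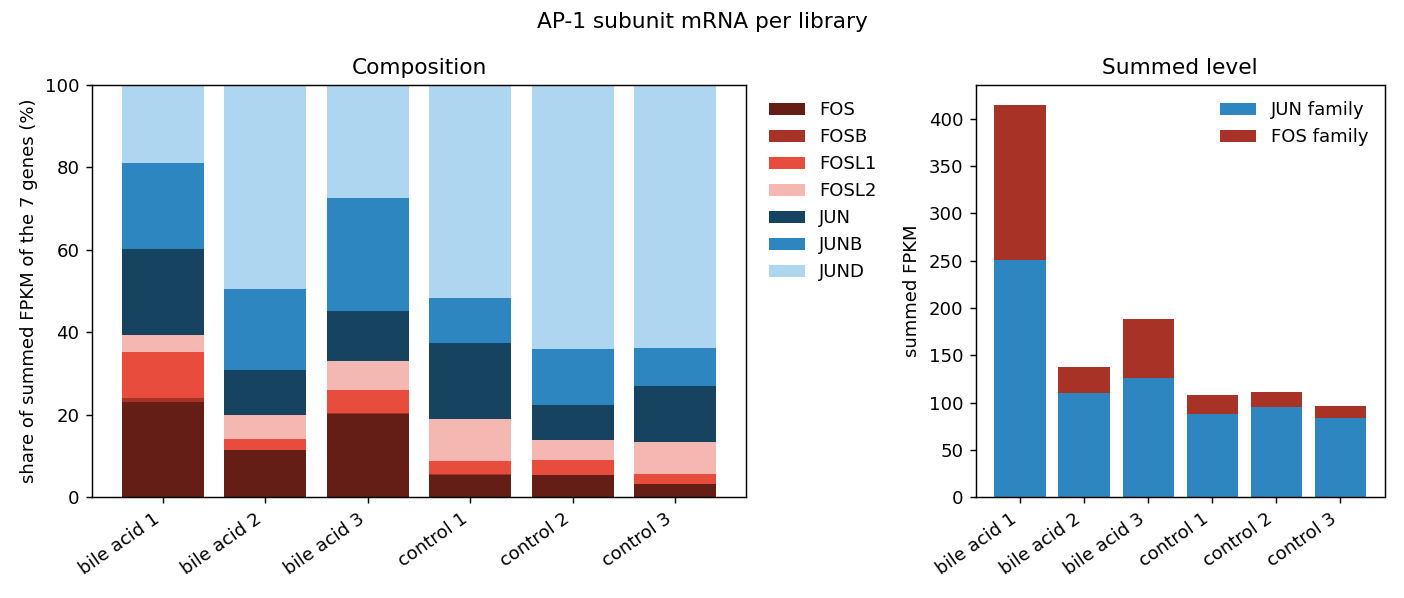
Left, the share of each AP-1 gene in the summed FPKM of the 7 genes (y axis, %) in each library; right, the summed FPKM of the JUN and FOS families. The JUND share is 19.0% to 49.6% in bile acid libraries and 51.6% to 63.9% in controls, and the summed level is highest in bile acid 1.

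Of the single libraries left out, bile acid 1 moved the fold changes of FOS, FOSB, FOSL1, JUN and JUNB most. Over the 6 fits that each leave out 1 library the log2 fold change ran from 2.42 to 3.75 for FOS and from 1.74 to 2.56 for JUNB. It ran from 2.03 to 5.29 for FOSB, from 1.15 to 3.19 for FOSL1 and from 0.46 to 1.98 for JUN, with the lowest value without bile acid 1 in each case. With both bile acid 1 and control 2 left out, edgeR called 14 genes, all higher (0.0778% of those tested), among them FOS with a log2 fold change of 2.59 (adjusted p = 0.0326) and JUNB with 1.97 (adjusted p = 0.0322). DESeq2 called FOS in each of its 6 fits without 1 library. Of the AP-1 genes it called FOS alone without bile acid 1, bile acid 3 or control 3, where 0.00545%, 0.0218% and 0.0382% of all genes were called higher. It called FOS and JUNB without control 1 or control 2, where the shares were 0.0824% and 0.886%, and FOS, FOSB, FOSL1 and JUNB without bile acid 2, where it was 0.278%.

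**Figure D4:**
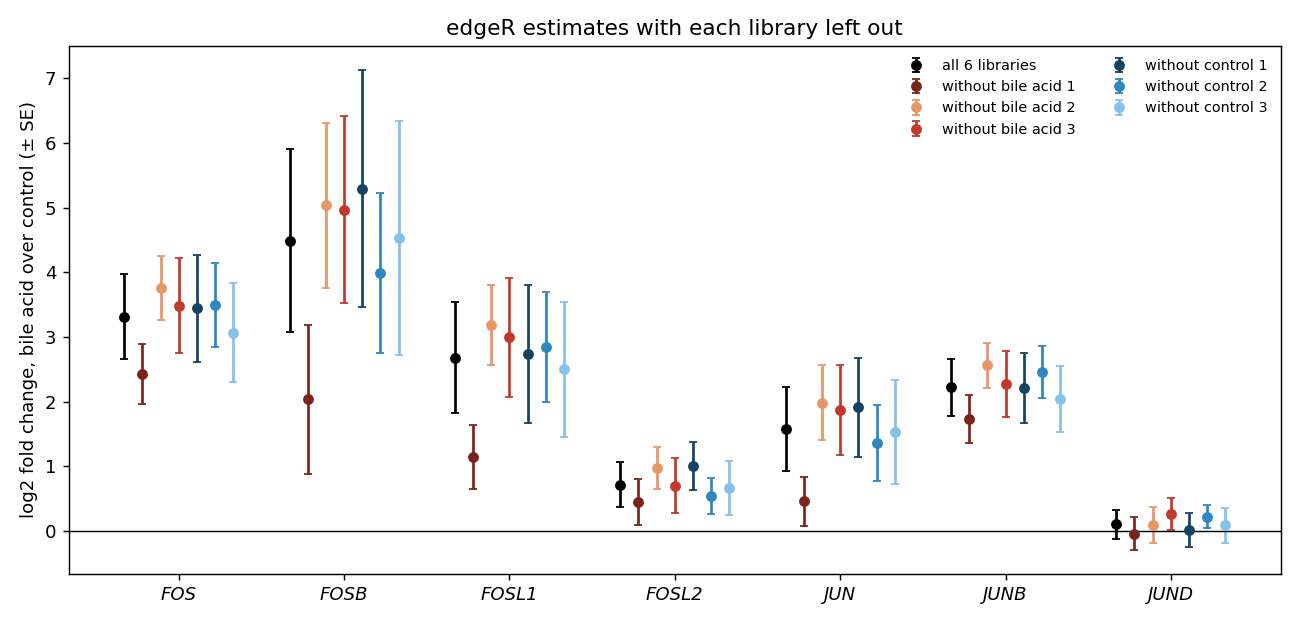
Log2 fold change, bile acid over control (y axis), from edgeR with all 6 libraries and with each library left out; bars are ± SE. The estimates of FOSB, FOSL1 and JUN are lowest without bile acid 1, and those of JUND stay near 0.

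The 3′ untranslated regions of the 7 mRNAs were searched for ATTTA, the pentamer of AU-rich elements through which ZFP36 proteins shorten the life of FOS mRNA. FOS had 5 in 806 bases, or 6.20 per kb, JUNB 2 in 500 bases, or 4.00 per kb, and JUND 1 in 681 bases, or 1.47 per kb. The median was 1.55 per kb over 14137 protein-coding genes tested, of which 68.9% held at least 1. FOSB, FOSL1, FOSL2 and JUN had 1.39 to 2.33 per kb. The nonamer TTATTTATT occurred in FOS and FOSL2, against 8.47% of genes. For FOS, JUNB and JUND, a stretch of 30 bases is given that holds as many pentamers as any other there. For JUNB that is 1 of its 2 pentamers, and other stretches tie with it. The stretches are from GENCODE 29 (GRCh38), in the sense of the mRNA, with the pentamer in capitals.
FOS 3′ UTR, chr14:75282059-75282088, plus strand: gtgtttttaATTTATTTAttaagatggatt
JUNB 3′ UTR, chr19:12793060-12793089, plus strand: atatatttgtgtATTTAacagggaggggaa
JUND 3′ UTR, chr19:18279997-18280026, minus strand: cgattctgccctATTTAtgtttctactcgg

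Among 12 regulators of AP-1 mRNA and protein turnover, the 3 genes of the ZFP36 family had the smallest p. ZFP36, which binds AU-rich elements and recruits the mRNA decay machinery, measured 45.6, 16.7 and 18.5 CPM in bile acid libraries, against 7.22, 7.27 and 7.53 CPM in control libraries. Its log2 fold change was 1.87 (SE 0.41), and it was called by DESeq2 (adjusted p = 0.0251) and not by edgeR (0.911). It was the 1 gene of the 12 that DESeq2 called, against 0.107% of all genes. ZFP36L1 and ZFP36L2 had log2 fold changes of 1.25 (SE 0.35) and 1.15 (SE 0.34) without a call, and the groups were apart for all 3 genes. These were the 3 of the 12 with every bile acid library above the controls, against 5.3% of all genes. Of the 12 regulators, 8 had a positive log2 fold change, with a median of 0.13, against 48.8% positive and a median of −0.01 over all genes tested. FBXW7, COP1 and ITCH, which direct JUN proteins to degradation, had log2 fold changes of 0.23, −0.11 and 0.05.

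The kinases and transcription factors upstream of the FOS and JUN genes had log2 fold changes on both sides of 0. Of 33 listed and tested, 20 had a positive log2 fold change, against 48.8% of all genes, with a median of 0.04 and a range of −0.53 to 0.58. An unadjusted p under 0.05 in edgeR was reached by 0 of them, against 3.31% of all genes, and 0 were called by DESeq2, against 0.107%. All bile acid libraries lay above all controls for 3 of the 33, against 5.3% of all genes, and below for 0, against 4.88%. The smallest p belonged to ELK3 (0.58, SE 0.28) and ELK1 (0.43, SE 0.25), partners of serum response factor, and to MAP2K5 (−0.53, SE 0.31), the kinase of the ERK5 branch. SRF, the serum response factor itself, measured 129, 68.6 and 65.7 CPM in bile acid libraries, against 68.6, 69.8 and 73.5 CPM in control libraries, so that bile acid 1 alone was higher. These are mRNA levels, and the activity of a kinase was not measured.

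Other bZIP proteins that pair with FOS or JUN were mixed. Of 12 listed, 11 were tested, 7 of them with a positive log2 fold change, against 48.8% of all genes, and a median of 0.24. The small MAF proteins, which lack an activation domain, held the 3 smallest p. MAFF measured 59.1, 14.0 and 13.3 CPM in bile acid libraries, against 9.48, 7.72 and 8.21 CPM in control libraries, with a log2 fold change of 1.76 (SE 0.59). MAFG and MAFK had 0.67 (SE 0.26) and 0.60 (SE 0.28), and neither edgeR nor DESeq2 called any of the 3. They were the 3 of the 11 tested with all bile acid libraries above all controls, against 5.3% of all genes. ATF3, a stress-induced partner of JUN, measured 66.2, 39.5 and 33.3 CPM in bile acid libraries, against 27.5, 43.8 and 47.8 CPM in control libraries, and JDP2, a repressor of AP-1, 85.1, 152 and 129 CPM in bile acid libraries, against 106, 154 and 132 CPM in control libraries, both with overlapping groups.

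Most of the tested AP-1 target genes had a higher mean in bile acid libraries, without a call. Of 29 listed, 20 had counts enough to be tested, of which 17 had a positive log2 fold change, against 48.8% of all genes, with a median of 0.50. An unadjusted p under 0.05 was reached by 6 with the bile acid mean higher, against 1.93% of all genes, and by 0 with it lower, against 1.39%. Neither edgeR nor DESeq2 called any. CCND1, the cyclin of G1 progression, measured 69.6, 20.8 and 36.6 CPM in bile acid libraries, against 19.1, 14.7 and 14.9 CPM in control libraries (log2 fold change 1.38, SE 0.42). TGFB1, a growth-inhibitory cytokine in epithelium, measured 95.2, 109.6 and 110.5 CPM in bile acid libraries, against 69.7, 82.2 and 74.95 CPM in control libraries (0.47, SE 0.17), and the order of its bile acid libraries was not that of FOS. The groups did not overlap for either gene. All bile acid libraries lay above all controls for 5 of the 20 tested targets, against 5.3% of all genes, and below for 0, against 4.88%. Of the 9 targets not tested, IVL, SPRR1A and SPRR1B, genes of terminal squamous differentiation, and CSF2 had no counts in any library. The collagenases and stromelysins MMP1, MMP3, MMP10 and MMP13 and the chemokine CXCL8 each stayed under 1 CPM in every library.

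Of 19 other immediate-early genes 18 were tested, and all 18 had a positive log2 fold change, against 48.8% of all genes, with a median of 1.13, which was 0.56 without bile acid 1. DESeq2 called 4 of them, EGR1, DUSP1, MYC and ZFP36, against 0.107% of all genes, and edgeR 0. EGR1, a zinc-finger factor induced by the same signals as FOS, measured 3134, 389 and 874 CPM in bile acid libraries, against 174, 150.1 and 72.7 CPM in control libraries (log2 fold change 3.47, SE 0.79). DUSP1, a phosphatase of MAP kinases, measured 288, 132 and 196 CPM in bile acid libraries, against 80.6, 68.8 and 52.2 CPM in control libraries (1.61, SE 0.32). MYC, a growth regulator, measured 107, 58.9 and 92.0 CPM in bile acid libraries, against 42.4, 30.8 and 28.6 CPM in control libraries (1.34, SE 0.28). The groups did not overlap for these 3 genes. All bile acid libraries lay above all controls for 8 of the 18 tested, against 5.3% of all genes, and below for 0, against 4.88%. EGR3, which was not tested for low counts in 5 libraries, measured 32.0 CPM in bile acid 1 and at most 0.382 CPM in the others. ATF3 and ZFP36 stand in this list as well as in the lists above.

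**Figure D5:**
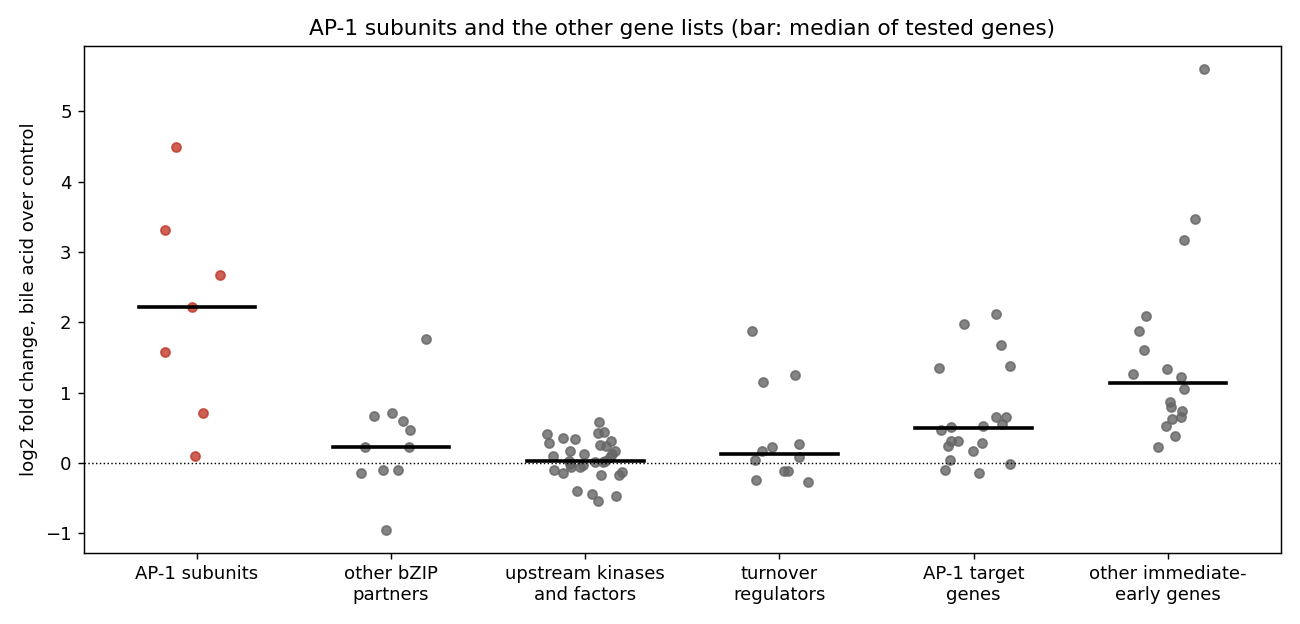
Log2 fold change, bile acid over control (y axis), of each tested gene in the 7 AP-1 subunits and 5 related lists (x axis); horizontal bars are medians. The medians are 2.22 for the AP-1 subunits, 1.13 for other immediate-early genes, 0.50 for AP-1 targets and 0.04 to 0.24 for the other lists.

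The genes with the most similar profile were sought by the root mean square difference of log2 CPM over the 6 libraries, each gene centred on its mean, among 11388 protein-coding genes averaging at least 5 CPM. EGR1 was closest to FOS, at 0.19, followed by CTGF, a matrix-associated signalling protein, at 0.46 and DUSP6, a phosphatase of ERK, at 0.58. The nearest AP-1 subunit to FOS was JUNB, at 0.54. FOSL1 lay closest to DUSP6 at 0.18, CYR61 at 0.24 and CTGF at 0.45. JUNB lay closest to IER3 at 0.27, DUSP1 at 0.37 and ZFP36 at 0.40, and JUN to KLF6 at 0.19, LIF at 0.20 and DDX60 at 0.26. FOSB lay nearest to NR4A1 at 0.64, XAF1 at 1.18 and EGR3 at 1.21. The distances were smallest for FOSL2 (PHACTR2, BACH1 and GBE1, 0.09 to 0.10) and JUND (SSR1, C11orf24 and CDC6, 0.07 to 0.08). Profiles were not scaled to how much a gene varies, so the sizes of these distances do not compare similarity between the 7 genes. Without bile acid 1, of the 3 nearest genes 2 stayed for FOS (EGR1 and CTGF), 1 each for FOSB, FOSL1, FOSL2 and JUNB, and 0 for JUN and JUND.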

How the data were processed

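Values per library came from the authors' deposited tables of read counts per gene and of FPKM, counts scaled to gene length (another column of the table) and depth. The submitters' processing notes name GRCh38, HISAT2 2.0.5, featureCounts and DESeq2 but give them no roles, and no annotation or strand setting is given there. Reads were paired-end of 150 bp, per the labels' protocols. Further deposited tables hold a signal, normalized counts, and the authors' comparison with log2 fold changes, p-values and adjusted p-values. The normalized counts came out as whole reads after scaling (100% of values, 31530 genes, tolerance 0.001 and wider for larger values). These recovered reads totalled 3.84% to 4.20% more per library than the deposited counts, so they are not the same counts. Rerunning edgeR on the recovered reads called 0 genes. Of columns that look like samples, 2 were not used.

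Counts were tested in edgeR 4.0.16 under R 4.3.3 (quasi-likelihood), with TMM scaling, filterByExpr and Benjamini-Hochberg adjustment over all 17743 genes, 3 bile acid against 3 control libraries without covariates, and the procedure was checked on simulated counts. The SE is the log2 fold change over the root of F. Alternatives were DESeq2 1.42.0, limma-voom (limma 3.58.1), other scalings and filters, a replicate block, removal of the length trend (lowess span 0.3), log2 FPKM with a pseudocount of 1 or 0.1, and libraries left out. All 7 AP-1 genes passed the filter. Replicate numbers were taken from the titles and not treated as pairs.

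The members and lists were chosen with earlier results of these data known. The text names all 7 genes, per list the genes called or else the 3 with the smallest p, and per gene the 3 nearest profiles. An item that this rule names among the AP-1 targets is not reported here. SRF, FBXW7, COP1, ITCH, ATF3, JDP2, EGR3, the genes called by DESeq2 alone and those too low to test were named after their values were seen. Of 141 listed symbols 141 were found, 2 by an older symbol.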

Additional observations from a re-analysis of the deposited data

How the results depend on the processing

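The direction of FOS, FOSB, FOSL1, FOSL2, JUN and JUNB was higher in bile acid libraries in each of the 26 alternatives run for each gene. JUND ran from −0.039 to 0.26 with 1 library left out in edgeR, with −0.039 without bile acid 1, and was −0.041 without it in DESeq2. The edgeR counts of 0 genes and 0 AP-1 genes became 19 and 2 in DESeq2, with log2 fold changes of 3.32 for FOS and 2.22 for JUNB, and 14 and 2 without bile acid 1 and control 2 together, with 2.59 for FOS and 1.97 for JUNB. Leaving out 1 library, edgeR called 0 to 1 genes (1 without control 2) and 0 AP-1 genes.

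DESeq2 with 1 library left out, added after seeing the data, called 1 to 158 genes and 1 to 4 AP-1 genes. Without bile acid 1 it called 1 gene, FOS (2.42). Without bile acid 2 it called 43 genes, with FOS (3.74), FOSB (5.10), FOSL1 (3.18) and JUNB (2.55) among them, and without bile acid 3 it called 4, with FOS (3.49). Without control 1 it called 15, with FOS (3.44) and JUNB (2.21). Without control 2 it called 158, with FOS (3.50) and JUNB (2.46), and without control 3 it called 7, with FOS (3.07). The lowest and highest log2 fold changes in these fits were 2.42 and 3.74 for FOS. The cause of these moves was not tested.

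With the replicate block edgeR called 0 genes, and the log2 fold changes were 3.05 for FOS and 2.12 for JUNB. An unadjusted p under 0.05 in edgeR was reached by 1109 genes with the block, against 588 without it. The SE of JUN was 0.31 with the block and 0.65 without it, and that of JUND 0.22 in both. The deviations of same-numbered libraries correlated at 0.307, 0.382 and 0.098 for numbers 1, 2 and 3. Bile acid 1 and 2 correlated best with the control of their own number, and bile acid 3 with control 1 (0.144). Deviations within a group of 3 sum to 0 and so depend on each other, and these correlations cannot decide whether the numbers are pairs. The main test did not take them as pairs. Shares from counts per kilobase equal those from FPKM by arithmetic, so that setting could not move them. Leaving out 1 of 3 libraries cannot shift a group mean by the SD of the 3, so only ranges are given. With 1 library left out, the FOS share ran from 15.8% to 21.7% in bile acid libraries and from 4.42% to 5.54% in controls. The JUNB share ran from 20.2% to 24.1% in bile acid libraries and from 10.0% to 12.3% in controls. The JUND share ran from 23.2% to 38.5% in bile acid libraries and from 57.7% to 63.9% in controls. The median of other immediate-early genes was 0.56 without bile acid 1 and that of bZIP partners 0.42 without bile acid 3. With 1 library left out, the median of turnover regulators (0.13) ran from 0.060 without bile acid 1 to 0.27 without control 3. That of upstream kinases and factors (0.04) turned to −0.0095 without bile acid 1 and −0.0097 without control 2, and reached 0.17 without bile acid 2. FOSB, at 0 to 20 counts in controls, is limited by depth.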
